A study of Homo sapiens with 6 samples.

Results

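The let-7 family was followed in small-RNA libraries from exosomes, the small vesicles that cells release into the medium. Its 9 members were chosen by their names: the mature 5p entries hsa-let-7a-5p, hsa-let-7b-5p, hsa-let-7c-5p, hsa-let-7d-5p, hsa-let-7e-5p, hsa-let-7f-5p, hsa-let-7g-5p and hsa-let-7i-5p, together with hsa-miR-98-5p, out of 2588 mature miRNA entries in each deposited table. The species prefix is dropped below. All 9 were listed in every table and had at least 1 read in some library, and 8 of the 9 had enough reads to enter the test between groups. The vesicles came from HCT116, an established human colorectal carcinoma line, and the cells had been microporated with control siRNA (siCTL, 3 libraries) or PRDX3 siRNA (siPRDX3, 3 libraries). PRDX3 is a mitochondrial peroxiredoxin. Per the labels' protocols both groups were transfected for 40 h and then held 24 h in medium whose serum had been depleted of nanoparticles, and vesicles were collected with a commercial kit. The libraries are numbered 1 to 3 in each group. The labels do not say whether they came from separate cultures, so every p-value speaks only of the spread from library to library, and that spread may be technical. The knockdown cannot be checked in a miRNA profile, and a closing sentence of the series text that names another siRNA and endothelial cells goes against the titles, which were followed.

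A miRNA is cut from a hairpin precursor, and its bases 2 to 8, the seed, do most of the pairing with target mRNAs, which are then repressed. The let-7 family is made from many hairpins whose mature 5p strands share the seed. It accumulates as cells differentiate, is held down in stem cells and many tumours by the LIN28 proteins, and represses growth genes such as RAS, MYC and HMGA2. The mature sequences are strongly conserved among vertebrates.

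The sequences of all 9 members are shown because the mix of members, on which the results turn, depends on telling near-identical RNAs apart. They are the RefSeq mature sequences (GRCh38.p14), 5′ to 3′, with the seed in capitals.
let-7a-5p: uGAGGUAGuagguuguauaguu
let-7b-5p: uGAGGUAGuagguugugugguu
let-7c-5p: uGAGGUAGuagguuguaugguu
let-7d-5p: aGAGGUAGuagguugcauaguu
let-7e-5p: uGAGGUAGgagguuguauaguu
let-7f-5p: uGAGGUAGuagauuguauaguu
let-7g-5p: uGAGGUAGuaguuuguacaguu
let-7i-5p: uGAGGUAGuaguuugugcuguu
miR-98-5p: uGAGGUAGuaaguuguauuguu

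All 9 are 22 bases long and share the seed GAGGUAG, so levels of different members were set side by side without a correction for length. Whether the libraries captured all members equally well was not tested. Positions are counted from 1 at the 5′ end. Against let-7a-5p, let-7c-5p carries only A19G, let-7e-5p only U9G and let-7f-5p only G12A. let-7b-5p differs from let-7a-5p by A17G and A19G and from let-7c-5p by G17A alone. let-7d-5p differs from let-7a-5p at its first base (U1A) and by U16C, let-7g-5p by G12U and U18C, miR-98-5p by G11A and A19U, and let-7i-5p by G12U, A17G, U18C and A19U. Of the 36 pairs of members, 4 differ at 1 base and 10 at 2 bases, and no pair differs at more than 6. How reads were divided between such close entries, and how many mismatches were allowed, is not given in the sources used here, so the split among let-7a-5p, let-7b-5p, let-7c-5p, let-7e-5p and let-7f-5p is uncertain.

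The 9 mature RNAs come from 12 hairpin genes (GRCh38; host genes from GENCODE v29, same strand). let-7a-5p can come from 3 hairpins and let-7f-5p from 2, and reads of a mature RNA do not say which. On chromosome 9, MIRLET7A1 (94175957 to 94176036), MIRLET7F1 (94176347 to 94176433) and MIRLET7D (94178834 to 94178920), all on the plus strand, lie together within intronic sequence of the lincRNA AL158152.2. On chromosome 22, MIRLET7A3 (46112749 to 46112822) and MIRLET7B (46113686 to 46113768), on the plus strand, overlap exons of the lincRNA MIRLET7BHG. On chromosome X, MIR98 (53556223 to 53556341) and MIRLET7F2 (53557192 to 53557274), on the minus strand, lie in intronic sequence of HUWE1. MIRLET7A2 (chromosome 11, 122146522 to 122146593, minus strand), MIRLET7C (chromosome 21, 16539828 to 16539911, plus strand) and MIRLET7E (chromosome 19, 51692786 to 51692864, plus strand) lie in introns of MIR100HG, MIR99AHG and SPACA6, each with miR-99, miR-100 or miR-125 family hairpins within 10 kb. MIRLET7G (chromosome 3, 52268278 to 52268361, minus strand) lies in an intron of WDR82 and MIRLET7I (chromosome 12, 62603686 to 62603769, plus strand) in an intron of the lincRNA AC048341.1.

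The deposited value of an entry is log2(x + 1), where x is a scaled abundance that falls on whole multiples of 1 step per library, so reads could be recovered. The libraries held 40149 to 230955 recovered miRNA reads, and 3 decimals in the files leave large read numbers approximate. Library siCTL 1 and library siCTL 2 stood apart: of the 80 tested entries, 30 and 23 had no read there, whereas siCTL 3 lacked 0 of them and the siPRDX3 libraries lacked 1, 8 and 1. One entry, miR-4451, took from 11.8% of reads in siPRDX3 1 to 76.9% in siCTL 2, and the deposited x summed to 994749 to 1616280 in siCTL and to 474714 to 686860 in siPRDX3. The family is therefore described first by its mix within each library, which no scaling between libraries can change.

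The let-7 family was abundant in every library. It had 6308, 7382 and 27049 reads across siCTL 1, 2 and 3 and 62839, 13082 and 12196 across siPRDX3 1, 2 and 3. As a share of miRNA reads this was 15.7% in siCTL 1 (95% Clopper-Pearson interval 15.4 to 16.1), 9.12% in siCTL 2 (8.92 to 9.32) and 21.7% in siCTL 3 (21.5 to 21.9). In the siPRDX3 libraries the shares were 27.2% (27.03 to 27.4), 13.5% (13.3 to 13.8) and 17.3% (16.98 to 17.5). The groups overlapped, and the highest and the lowest share stood in siPRDX3 1 and siCTL 2, the libraries with the least and the most miR-4451. With miR-4451 left out of the denominator the family took 31.1%, 39.4% and 25.9% of the remaining reads in siCTL and 30.9%, 25.9% and 28.7% in siPRDX3. The group means then changed order, from 15.5% ± 6.29 in siCTL and 19.3% ± 7.07 in siPRDX3 to 32.1% ± 6.82 and 28.5% ± 2.5 (SD of 3 libraries each). The labels name no molecular identifiers, so PCR copies may count as reads and these intervals cover counting error only.

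**Figure D1:**
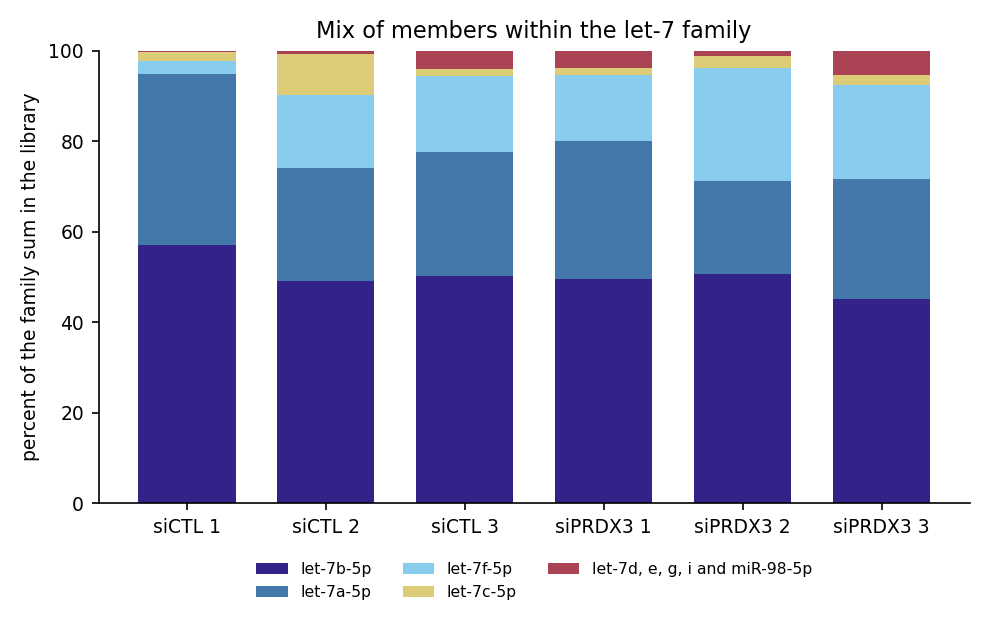
Each bar is 1 library and shows the percent of the summed x of the 9 family members taken by let-7b-5p, let-7a-5p, let-7f-5p, let-7c-5p and the other 5 members together. let-7b-5p takes between 45.1% and 57.0% in every bar, let-7f-5p shrinks to 2.87% in siCTL 1, and let-7c-5p reaches 9.15% in siCTL 2.

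The family was carried by let-7b-5p, let-7a-5p and let-7f-5p, which together made up 97.7%, 90.2% and 94.3% of it in the siCTL libraries and 94.7%, 96.2% and 92.5% in the siPRDX3 libraries, in order of their numbers. let-7b-5p led in all 6 libraries. Its share of the family was 57.0%, 49.1% and 50.1% in siCTL and 49.6%, 50.8% and 45.1% in siPRDX3. The group means were 52.1% ± 4.27 and 48.5% ± 3.0 (SD of 3 libraries each; two-sided exact permutation, p = 0.5). Among all miRNA entries it ranked 1 in siPRDX3 1, 3 in siPRDX3 2 and 2 in the other libraries.

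let-7a-5p came second in 5 of the 6 libraries. It held 37.8%, 24.9% and 27.6% of the family in siCTL and 30.3%, 20.6% and 26.5% in siPRDX3, with means of 30.1% ± 6.85 and 25.8% ± 4.92 (SD of 3 libraries each; two-sided exact permutation, p = 0.5). Without siCTL 1 the difference between the means shrank from −4.30 to −0.42 percentage points. The level of let-7b-5p was 1.51, 1.98 and 1.82 times that of let-7a-5p in siCTL and 1.64, 2.47 and 1.70 times in siPRDX3. The log2 ratio of let-7a-5p to let-7b-5p averaged −0.81 ± 0.20 for siCTL and −0.93 ± 0.33 for siPRDX3 (SD of 3 libraries each; two-sided exact permutation, p = 0.7). With 3 libraries against 3, no such test can go below 0.1, and 9 shares and this ratio were tested.

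let-7f-5p, 1 base away from let-7a-5p, varied more. It made up 2.87% of the family in siCTL 1 (181 reads, interval 2.47 to 3.31), 16.2% in siCTL 2 and 16.7% in siCTL 3, against 14.8%, 24.9% and 20.9% in siPRDX3 1, 2 and 3. The siCTL 1 share lay well below the other 5, and the groups overlapped. The means were 11.9% ± 7.83 and 20.2% ± 5.07 (SD of 3 libraries each; two-sided exact permutation, p = 0.3), and without siCTL 1 the difference was 3.75 percentage points. Relative to let-7a-5p in the same library, let-7f-5p stood at 7.58%, 65.0% and 60.5% in siCTL and at 48.8%, 120.9% and 78.7% in siPRDX3, so siPRDX3 2 was the library in which it passed let-7a-5p.

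let-7c-5p, 1 base from both let-7a-5p and let-7b-5p, came next in all libraries but siCTL 3 and siPRDX3 3, where let-7e-5p was above it. It took 2.16%, 9.15% and 1.71% of the family in siCTL and 1.53%, 2.58% and 2.27% in siPRDX3 (two-sided exact permutation over 3 libraries each, p = 0.7). One library, siCTL 2, set its siCTL mean of 4.34% ± 4.17, against 2.13% ± 0.54 in siPRDX3 (SD). Without siCTL 2 the difference between the means turned from −2.21 to 0.19 percentage points. As a percent of let-7b-5p, let-7c-5p stood at 18.6% in siCTL 2 and between 3.09% and 5.07% in the other 5 libraries.

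**Figure D2:**
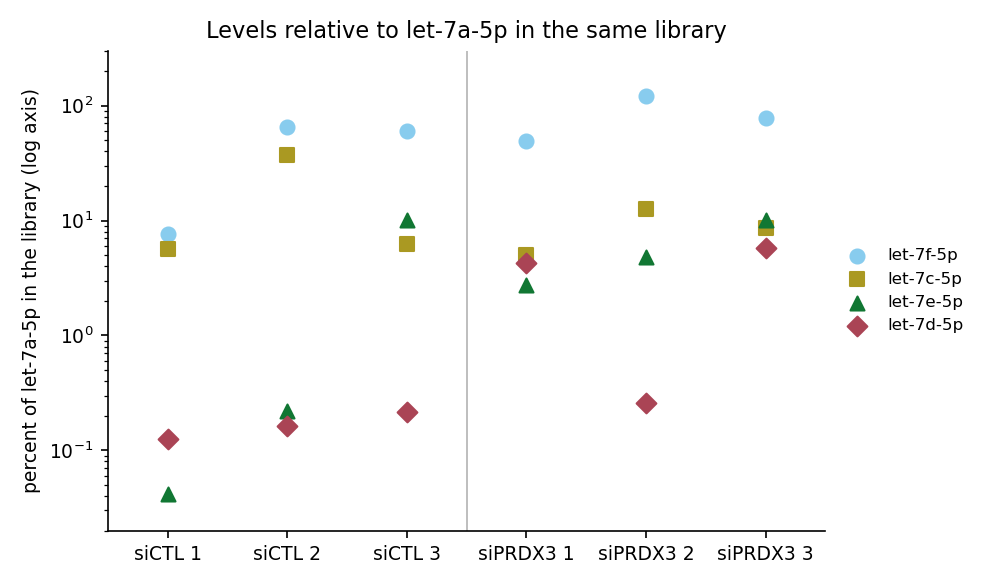
Points show x of let-7f-5p, let-7c-5p, let-7e-5p and let-7d-5p as a percent of x of let-7a-5p in the same library, on a log axis, for the 6 libraries with the groups parted by a grey line. let-7d-5p lies at 4.27% and 5.79% in siPRDX3 1 and 3 and between 0.126% and 0.260% in the other 4 libraries, and let-7e-5p is lowest in siCTL 1 and 2.

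The remaining 5 members together made up 0.174%, 0.678% and 3.95% of the family in siCTL and 3.73%, 1.25% and 5.27% in siPRDX3. The lowest of these values rests on 11 reads.

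let-7d-5p, whose first base differs from that of the other members, had 3, 3 and 16 reads across siCTL 1, 2 and 3 and 814, 7 and 187 across siPRDX3 1, 2 and 3. Its share of the family was 0.0476%, 0.0406% and 0.0592% in siCTL and 1.30%, 0.0535% and 1.53% in siPRDX3. siPRDX3 1 and siPRDX3 3 were high, while siPRDX3 2 lay among the siCTL libraries and made the groups overlap. The means were 0.0491% ± 0.0094 and 0.961% ± 0.795 (SD of 3 libraries each; two-sided exact permutation, p = 0.2). The libraries held 40149, 80953 and 124730 miRNA reads for siCTL and 230955, 96660 and 70677 for siPRDX3, and the part of depth in this pattern was not tested. let-7a-5p and let-7f-5p, whose hairpins include neighbours of MIRLET7D on chromosome 9, did not share the step: let-7d-5p was 0.215% of let-7a-5p in siCTL 3 and 5.79% of it in siPRDX3 3.

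let-7e-5p had 1, 4 and 750 reads in the siCTL libraries and 527, 130 and 328 in the siPRDX3 libraries. It made up 0.0159% (interval 0.00040 to 0.0883), 0.0542% (0.0148 to 0.139) and 2.77% (2.58 to 2.98) of the family in siCTL, and 0.839%, 0.994% and 2.69% in siPRDX3. siCTL 1 and siCTL 2 were low and siCTL 3 was the highest of all 6, so the siCTL range enclosed the siPRDX3 range (two-sided exact permutation over 3 libraries each, p = 0.6). As a percent of let-7a-5p, from which it differs at 1 base, it ran from 0.0419% in siCTL 1 to 10.15% in siPRDX3 3. siCTL 3 was nearly level with siPRDX3 3, at 10.06%.

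let-7g-5p had 4, 0 and 115 reads in the siCTL libraries and 627, 4 and 98 in the siPRDX3 libraries. The 0 in siCTL 2 allows a share of up to 0.00371% of the reads of that library, taken as 3 reads of its total. Its share of the family was highest in siPRDX3 1 and siPRDX3 3, at 0.998% and 0.804%, followed by siCTL 3 with 0.425%, and it was 0.0634% or less in the other 3 (two-sided exact permutation over 3 libraries each, p = 0.3). let-7i-5p, which differs from let-7g-5p at 2 bases, had 3, 42 and 185 reads in the siCTL libraries and 364, 21 and 29 in the siPRDX3 libraries. Its family shares were 0.0476%, 0.569% and 0.684% in siCTL and 0.579%, 0.161% and 0.238% in siPRDX3 (two-sided exact permutation over 3 libraries each, p = 0.9). The order of these members changed from library to library: let-7i-5p had 1.61 times the level of let-7g-5p in siCTL 3 but 0.296 times in siPRDX3 3.

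miR-98-5p, the member that carries another name, was near the limit of detection, with 0, 1 and 2 reads in the siCTL libraries and 11, 2 and 1 in the siPRDX3 libraries. Its share of the family was 0.0175% at most (two-sided exact permutation over 3 libraries each, p = 0.2). It was the member that did not enter the test between groups. let-7f-5p, which shares a locus with it through MIRLET7F2, had 20979 reads in all against 17 of miR-98-5p.

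**Figure D3:**
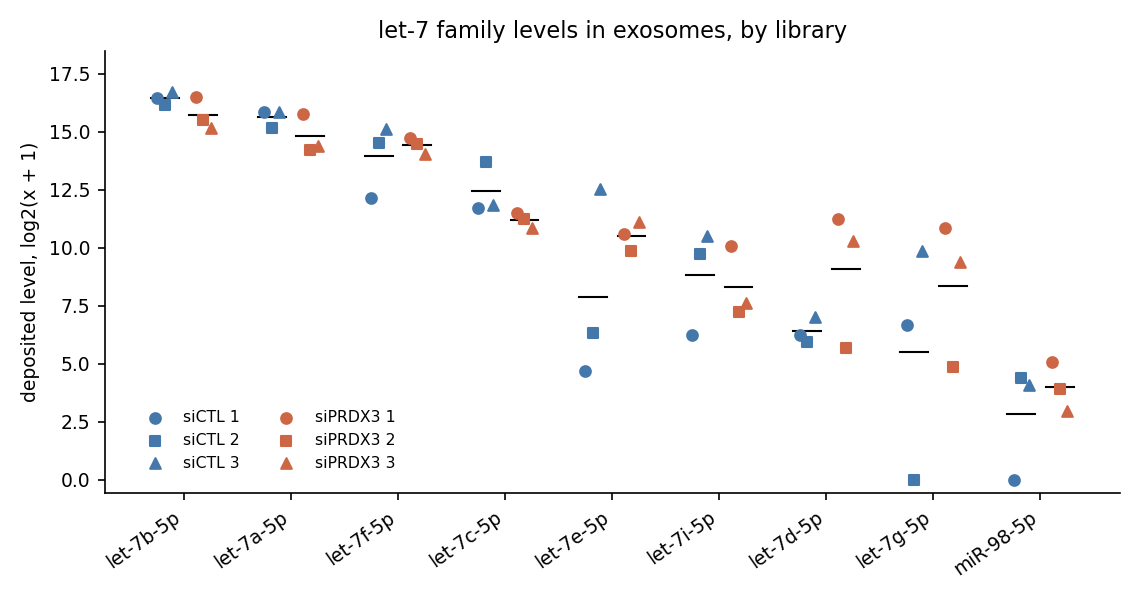
Points give the deposited level, log2(x + 1), of each member in each library, siCTL in blue and siPRDX3 in orange, with a bar at each group mean. let-7b-5p and let-7a-5p stay between 14.22 and 16.72 in all 6 libraries, while let-7g-5p runs from 0 to 10.87 and only let-7c-5p has groups that do not overlap.

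The comparison of siPRDX3 with siCTL asked whether exosomal levels of the family differ when PRDX3 is depleted. Deposited log2 values were compared by limma over all 80 tested entries, with Benjamini-Hochberg adjustment over the 80. Of the 8 tested members, 0 passed an adjusted p of 0.05, where 0% of all tested entries did, and 0 had an unadjusted p under 0.05, where 7.5% of all did. limma-voom on the recovered reads called 0 members with library totals, where 1.25% of all tested entries passed, and 0 members with the sizes of the deposited scaling, where 0% of all did. The adjusted p-values of the members by limma lay between 0.546 and 0.861. The fold changes were above 0 for 4 members and below 0 for 4, with a median of −0.01, against a median of 1.72 over all 80.

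let-7b-5p had levels of 16.46, 16.14 and 16.72 in siCTL and 16.50, 15.52 and 15.17 in siPRDX3. The siPRDX3 1 level lay within the siCTL range and the other pair lay below it. The log2 fold change was −0.71 (SE 0.57; adjusted p = 0.590 by limma). let-7a-5p had levels of 15.87, 15.16 and 15.86 in siCTL and 15.79, 14.22 and 14.41 in siPRDX3, again with siPRDX3 1 inside the siCTL range, and a fold change of −0.82 (SE 0.70; adjusted p = 0.590 by limma). let-7f-5p had levels of 12.15, 14.54 and 15.14 against 14.76, 14.49 and 14.06, and its fold change was 0.50 (SE 0.99; adjusted p = 0.776 by limma). The siPRDX3 levels of let-7f-5p all fell inside the wider siCTL range.

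let-7c-5p had levels of 11.73, 13.72 and 11.85 in siCTL and 11.48, 11.22 and 10.86 in siPRDX3, so every siCTL library lay above every siPRDX3 library. The fold change was −1.25 (SE 1.15; adjusted p = 0.590 by limma). Groups did not overlap for 1 of the 8 tested members on the deposited scale, and for 16.2% of all tested entries in either direction and 8.75% with siCTL above. As shares of reads let-7c-5p had 0.339%, 0.835% and 0.371% in siCTL and 0.417%, 0.349% and 0.392% in siPRDX3. These shares overlapped, and on that scale groups overlapped for all 8 tested members, while they did not for 15% of all tested entries.

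The sparser members had larger errors. let-7d-5p had levels of 6.25, 5.93 and 7.01 in siCTL and 11.24, 5.66 and 10.30 in siPRDX3, a log2 fold change of 2.67 (SE 1.98; adjusted p = 0.546 by limma). let-7e-5p had levels of 4.70, 6.34 and 12.55 against 10.62, 9.85 and 11.11, with a fold change of 2.66 (SE 2.27; adjusted p = 0.590 by limma). The high siCTL 3 value put the siPRDX3 values of let-7e-5p inside the siCTL range. let-7g-5p had levels of 6.66, 0 and 9.84 against 10.87, 4.88 and 9.37, a fold change of 2.87 (SE 2.99; adjusted p = 0.590 by limma) that depends on the added 1 because of the 0. It was 0.12 without siCTL 2, which holds the 0, and 5.04 without siCTL 3. let-7i-5p had levels of 6.25, 9.71 and 10.53 against 10.08, 7.23 and 7.61, with a fold change of −0.52 (SE 1.85; adjusted p = 0.861 by limma). In a bulk preparation of vesicles, fewer vesicles that carry a miRNA and fewer copies in each vesicle cannot be told apart.

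Removing siCTL 3 changed the outcome for 1 member. Without it let-7e-5p passed, with a log2 fold change of 5.00 (adjusted p = 0.0372 by limma), as did 25% of all tested entries. Its siCTL level then rested on 1 and 4 reads, in the pair of libraries where many entries had none. Without siCTL 1 and siCTL 2 together siCTL is 1 library, assumed to vary like the siPRDX3 libraries, so these values have no replicate check in siCTL. The fold change of let-7e-5p was then −2.02, 7 of the 8 members lay below 0 and let-7d-5p lay above 0. All tested entries lay low in this setting, with a median of −1.15 over the 80 against −1.02 for the members. Of the 8 members, 3 lay below the median of all.

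**Figure D4:**
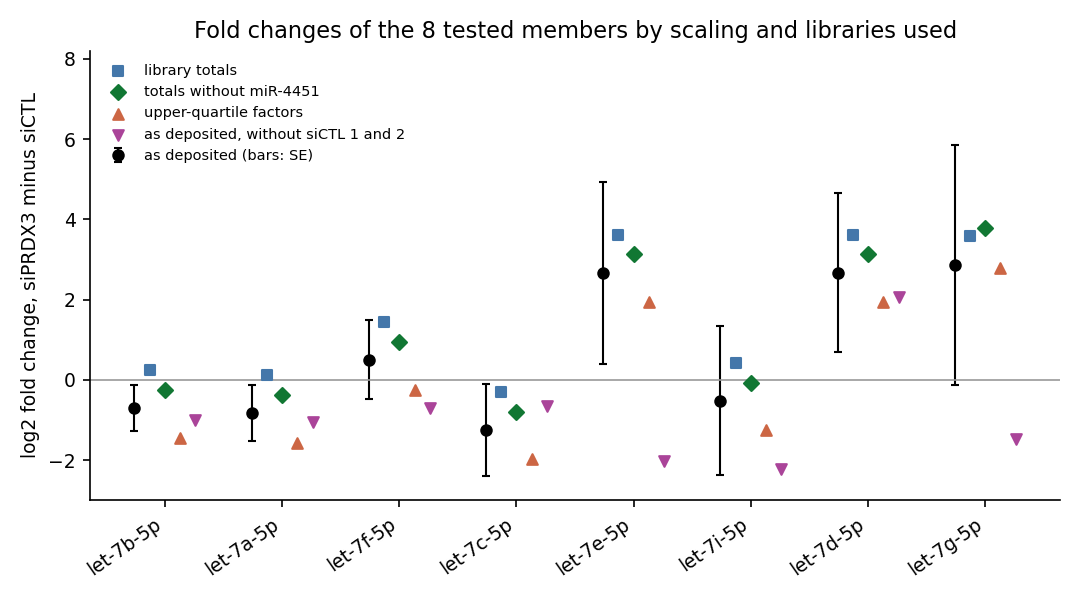
Points give the log2 fold change (siPRDX3 minus siCTL) of the 8 tested members as deposited (black, with SE), under library totals, under totals without miR-4451, with upper-quartile factors, and as deposited without siCTL 1 and 2. let-7c-5p lies below 0 and let-7d-5p above 0 in all 5 settings, and let-7b-5p and let-7a-5p lie above 0 only under library totals.

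The direction of the abundant members depended on the scaling between libraries. Under library totals the fold change was 0.24 for let-7b-5p and 0.13 for let-7a-5p, and 7 of the 8 members lay above 0. With upper-quartile factors the values were −1.45 and −1.56, and 3 of the 8 lay above 0. The median over all tested entries moved as well, from 1.72 as deposited to 2.57 under library totals, 2.20 under totals without miR-4451 and 1.05 with upper-quartile factors. Relative to that median, the members' median stood at −1.74, −1.63, −1.76 and −1.80 in these 4 settings. A change of scaling moves all entries of a library nearly alike, so these settings could hardly change this gap. The gap was −1.20 with 10 added to x in place of 1. By limma-voom it was −0.74 with library totals and −0.71 with the deposited sizes. Over the 686 entries with a read it was −0.19. It stood at 0.13 without siCTL 1 and siCTL 2 together, and at 0.19 over the 53 entries with a read in every library, which leave out let-7g-5p. Many other tested entries had no read in siCTL 1 or siCTL 2, which the abundant let-7 members did not share. An entry without reads in siCTL could be tested through the siPRDX3 libraries. The median of all entries was 0.17 over the 686 with a read. The part of these absences and of the choice of entries in the gap was not tested.

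The opposite arms of the let-7 hairpins were nearly missing. A hairpin gives a 5p and a 3p strand, of which the 3p strand of let-7 is usually degraded. The 11 listed 3p entries had 52 reads in all, against 128856 of the 9 members, or 0.0403% of the sum. Reads were found for 7 of them and 4 were at 0 in every library, and none was deep enough to test. let-7g-3p had the most, with 6, 0 and 0 reads in the siCTL libraries and 6, 0 and 16 in the siPRDX3 libraries, followed by let-7b-3p with 0, 1 and 4 against 3, 0 and 7. In siCTL 1 let-7g-3p had more reads than let-7g-5p, 6 against 4. The others with reads were let-7d-3p with 4 in all, let-7i-3p with 2, and let-7a-3p, let-7f-1-3p and miR-98-3p with 1 each.

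Of 2281 entries with a RefSeq mature sequence, 2 outside the family, or 0.0877%, carry the same bases 2 to 8. They are shown because a target site for the let-7 seed would pair with them too.
miR-4458: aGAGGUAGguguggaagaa
miR-4500: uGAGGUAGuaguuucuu

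miR-4458 had 0, 0 and 3 reads in the siCTL libraries and 1, 0 and 1 in the siPRDX3 libraries, and miR-4500 had 0 in all 6. Among the entries with a sequence, reads with the let-7 seed thus came almost entirely from the 9 members.

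The miRNAs encoded beside let-7 hairpins were compared with the members from the same loci, and only some shared their pattern. miR-100-5p, next to MIRLET7A2, had 0, 1 and 1574 reads in the siCTL libraries and 7229, 321 and 2284 in the siPRDX3 libraries, while let-7a-5p had 2387 and 1836 reads in siCTL 1 and 2. let-7a-5p can also come from its other hairpins. miR-99a-5p, next to MIRLET7C, had 1, 4 and 7 reads against 49, 57 and 12. On the deposited scale its siPRDX3 levels lay above its siCTL levels (log2 fold change 1.78; SE 1.75; adjusted p = 0.590 by limma), the opposite order to let-7c-5p. The margin was small, 6.351 in siPRDX3 3 against 6.337 in siCTL 2, and 7.5% of all tested entries had siPRDX3 above. As shares of reads the groups of let-7c-5p overlapped. miR-99b-5p, next to MIRLET7E, had 0, 1 and 475 reads against 347, 1420 and 347, and so was near 0 in the same siCTL libraries as let-7e-5p. Such low values were not particular to this locus: 30 of the 80 tested entries were undetected in siCTL 1, and 23 in siCTL 2. Whether the MIRLET7E locus adds to the likeness was not tested. miR-125a-5p, from the same locus, had 0, 0 and 185 reads against 1294, 1 and 1, and was nearly missing from siPRDX3 2 and 3, where let-7e-5p had 130 and 328. miR-4763, between MIRLET7A3 and MIRLET7B, had 1 read in all.

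The tested entries most like the family across libraries were found by Pearson's r, over the 6 libraries, between an entry's deposited level and log2(1 + x summed over the 9 members). Of the 72 other tested entries the closest were miR-191-5p (r = 0.831), miR-21-5p (0.829), miR-148a-3p (0.768), miR-4443 (0.658) and miR-4474-3p (0.646). Such r values share the libraries and their scaling. Under library totals, 0 of these 5 were among the closest 5, and r was 0.197 for miR-191-5p and 0.665 for miR-148a-3p. miR-148a-3p had 699, 323 and 1471 reads in the siCTL libraries and 2985, 908 and 432 in the siPRDX3 libraries. miR-191-5p had 1, 28 and 30 against 317, 2 and 0, and miR-4474-3p had 0, 12 and 128 against 268, 0 and 2. The r values of this pair thus rest partly on levels at or near the floor.

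Markers of the labelled cell type and of other cells were read beside the family. Of 10 colon epithelial entries 9 had reads, miR-429 being at 0, and they summed to 0.0741% to 1.27% of reads in siCTL and 0.107% to 0.549% in siPRDX3. miR-200c-3p, a defining epithelial miRNA, had 0, 0 and 450 reads against 253, 1 and 190, so it had no read in siCTL 1 and 2. miR-21-5p of the same list had 37 and 55 reads in these libraries, and the other 8 entries had 4 or fewer each. Of 5 erythrocyte entries 4 had reads, miR-144-3p being at 0, with a sum of 4.15% to 5.58% in siCTL and 1.09% to 3.54% in siPRDX3. Both liver entries had reads, with 0.0593% to 5.35% in siCTL and 2.44% to 9.63% in siPRDX3, nearly all from miR-122-5p. Leukocyte and platelet entries (3 of 6 with reads, miR-142-3p, miR-223-3p and miR-150-5p at 0) reached 0.0168% in siCTL and 0.406% in siPRDX3, and fibroblast and smooth muscle entries (1 of 4) 0.0016% and 0.0071%. Endothelial entries (1 of 2) reached 0.0040% and 0.218%. The siPRDX3 maxima of the leukocyte, fibroblast and endothelial lists all stood in siPRDX3 3, with 287 reads of miR-146a-5p and 154 of miR-126-3p. The fibroblast maximum rests on only 5 reads of miR-143-3p, which had 10 reads in the deeper library siPRDX3 1. Since let-7 is made in most tissues, family reads from HCT116 vesicles and from any RNA left in the serum cannot be told apart in these tables, and the part of such RNA in the mix was not tested.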

How the data were processed

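The authors deposited 1 table per library with a log2 value for each of 2588 mature miRNA entries. Bowtie2 and bedtools 2.25.0 are listed, without a role, per the submitters' processing notes. Genome build, annotation, mismatches, multiply mapped reads and scaling: not given in the sources used here. Values were taken as log2(x + 1). Of the values of up to 100 reads, 100% were whole within 0.1 read in every library. Family shares used x; binomial intervals used recovered reads. An entry was tested where at least 3 libraries reached 113 CPM (10 reads in a library of median size), with at least 15 reads in all. limma 3.58.1 (R 4.3.3), with a mean-variance trend and without covariates, was fitted on the deposited log2 values of 6 libraries. Its code was also run on simulated data of much smaller spread than these, where the median SE of the tested entries was 2.40. That run does not show what the fit can detect here. Shares were compared by exact permutation of libraries (Python 3.11.15). The text names the 9 members, their 3p arms, entries of the same seed, neighbours of their hairpins and the 5 entries of highest r. Members and lists were chosen with earlier results of these data known. Alternatives covered scaling, filter, pseudocount, limma-voom, replicate block and left-out libraries; limma-voom with the deposited sizes was added after seeing the data.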

Additional observations from a re-analysis of the deposited data

How the results depend on the processing

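The number of let-7 members called was 0 in 16 of 17 alternatives. Leaving out 1 library each gave 0 to 1 members (0 to 20 over all entries), the higher values without siCTL 3, where let-7e-5p passed. limma-voom with library totals called 1 entry of 80, not a member. Directions that turned among fold changes were let-7a-5p (0.13 under library totals, 0.26 by limma-voom with library totals), let-7b-5p (0.24 and 0.34) and let-7i-5p (0.43 and 0.89). let-7f-5p turned to −0.24 with upper-quartile factors. Without siCTL 1 and 2 together, with the 1 siCTL library left assumed to vary like the siPRDX3 libraries, let-7e-5p stood at −2.02, let-7f-5p at −0.70 and let-7g-5p at −1.47. Leaving out 1 library each gave −0.40 to 1.09 for let-7f-5p and −1.81 to 0.33 for let-7i-5p. It gave 1.58 to 4.37 for let-7d-5p and 0.12 to 5.04 for let-7g-5p, which stood at 1.85 with pseudocount 10. For differences of family shares, leaving out 1 library gave −6.90 to −0.42 percentage points for let-7a-5p, −5.04 to −1.13 for let-7b-5p, 3.75 to 10.96 for let-7f-5p, 0.625 to 1.37 for let-7d-5p, 0.254 to 0.738 for let-7g-5p, −3.53 to 0.19 for let-7c-5p, −0.0310 to 1.47 for let-7e-5p and −0.301 to 0.0176 for let-7i-5p. As centred log2 ratios miR-98-5p stood at −0.52. The difference in the log2 ratio of let-7a-5p to let-7b-5p was −0.12. It ran from −0.22 to 0.073 without 1 library and was 0.29 with let-7f-5p added to let-7a-5p and let-7c-5p added to let-7b-5p (exact permutation p = 0.2). The difference in the family's share of reads was 3.83 percentage points, −3.65 without miR-4451, and −0.110 to 6.92 without 1 library. In each of these the cause was not tested. Deviations from the group means correlated at −0.238, 0.176 and 0.140 between the libraries of replicate numbers 1, 2 and 3. No library correlated best with its own number. With 3 libraries in each group, such correlations cannot show whether the numbers pair the libraries. The replicate block called 0 of 80 entries; in this balanced design it cannot change a fold change. Low read numbers limit let-7d-5p, let-7e-5p, let-7g-5p, let-7i-5p and miR-98-5p most, with 0 to 4 reads each in siCTL 1. The part of library depth in these low numbers was not tested.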
